A study of Mus musculus with 48 samples.

Results

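The genes described here encode the collagens and the other structural proteins of the extracellular matrix, with the enzymes that cross-link or cleave them, in RNA sequencing libraries of mouse left ventricular cardiomyocytes. They were taken as a list of 49 gene symbols, and 49 of 49 were present among the 30743 gene rows of the count table and passed the filter on low counts. The list held 6 chains of fibrillar collagens, 7 of basement membrane collagens and 7 of other collagens. It also held 8 laminin, nidogen and perlecan genes, 8 elastic fibre and fibronectin genes, 3 cross-linking enzymes, 6 proteoglycan and dermatopontin genes, and 4 proteases and inhibitors.

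The mice carried the nuclear (n) and mitochondrial (mt) genomes of 2 inbred strains, C3H/HeN (C3H) and C57BL/6J (C57), either as wild types or reciprocally exchanged, and cells were taken on day 3 after ACF or sham surgery. ACF is commonly read as aortocaval fistula, an operation that overloads the heart with volume. In 24 libraries (set A) the titles name the surgery, with 3 libraries in each of 8 groups: C3H_MNX_ACF and C3H_MNX_sham (genotype label MNX C57n:C3Hmt), C57_MNX_ACF and C57_MNX_sham (MNX C3Hn:C57mt), C3H_wt_ACF and C3H_wt_sham (WT C3H), and C57_wt_ACF and C57_wt_sham (WT C57B6J). In the other 24 (set B) the treatment label is sham for every library and the titles give 4 groups of 6: C3Hn-C57mt, C3H_WT, C57n-C3Hmt and C57_WT. Per the labels' protocols, hearts were perfused with collagenase, the right ventricle and atria were removed and cardiomyocytes were pelleted at low speed. The labels do not tie libraries to individual mice or give their age, so the spread behind each p-value is that between libraries and may be technical.

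Heart matrix is made mainly by resident fibroblasts, which secrete the fibrillar collagens I, III and V, the microfibril and elastin proteins and the small proteoglycans that coat collagen fibrils. Endothelial cells, mural cells and cardiomyocytes each lie on a basement membrane of type IV collagen, laminins, nidogens and perlecan, and cardiomyocytes themselves contribute to theirs. In a preparation of cardiomyocytes, matrix transcripts therefore depend on which other cells came through the isolation, and in such bulk RNA fewer cells of a type and less RNA per cell cannot be told apart.

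The sequences before the transcription starts of 6 members are shown because these genes carry the contrasts below: a steep relation to fibroblast markers (Col1a2, Col3a1), a shallow one (Col4a1, Col4a2) and the differences by nuclear strain with the smallest p-values (Fmod, Fbln1). They are the 250 bases before the start in RefSeq's table on build GRCm38.p6, read 5′ to 3′ on the gene's strand, and come from the C57BL/6J reference, so they do not show any C3H variant. Entries were found for 31 of 49 members. The positions are chr6:4505368-4505617 (plus strand) for Col1a2, chr1:45311288-45311537 (plus) for Col3a1, chr8:11312827-11313076 (minus) for Col4a1, chr8:11312555-11312804 (plus) for Col4a2, chr1:134037004-134037253 (plus) for Fmod and chr15:85205758-85206007 (plus) for the second of 2 starts listed for Fbln1. Capitals mark 3 motifs searched on both strands. The first was CCAAT, which on the opposite strand reads ATTGG. The second was TATAAA, which on the opposite strand reads TTTATA. The last was GGGCGG, which on the opposite strand reads CCGCCC.
Col1a2: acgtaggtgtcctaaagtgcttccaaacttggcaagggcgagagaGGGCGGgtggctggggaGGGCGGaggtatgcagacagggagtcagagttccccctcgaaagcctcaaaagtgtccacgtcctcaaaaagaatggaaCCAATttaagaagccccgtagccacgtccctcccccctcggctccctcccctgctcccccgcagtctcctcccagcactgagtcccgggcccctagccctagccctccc
Col3a1: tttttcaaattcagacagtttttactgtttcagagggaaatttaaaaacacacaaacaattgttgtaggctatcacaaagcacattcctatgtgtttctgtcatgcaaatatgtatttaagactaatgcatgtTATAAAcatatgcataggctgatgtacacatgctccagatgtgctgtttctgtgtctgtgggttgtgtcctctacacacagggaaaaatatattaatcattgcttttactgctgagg
Col4a1: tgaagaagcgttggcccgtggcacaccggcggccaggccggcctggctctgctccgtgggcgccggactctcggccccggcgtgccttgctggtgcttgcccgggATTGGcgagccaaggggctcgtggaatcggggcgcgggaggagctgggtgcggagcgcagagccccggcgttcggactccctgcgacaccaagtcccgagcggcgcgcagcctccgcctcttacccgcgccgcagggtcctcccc
Col4a2: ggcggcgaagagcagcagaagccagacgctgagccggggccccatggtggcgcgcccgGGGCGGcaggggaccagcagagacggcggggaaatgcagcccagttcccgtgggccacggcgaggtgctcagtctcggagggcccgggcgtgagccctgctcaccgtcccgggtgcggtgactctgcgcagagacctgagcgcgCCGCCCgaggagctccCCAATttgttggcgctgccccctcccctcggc
Fmod: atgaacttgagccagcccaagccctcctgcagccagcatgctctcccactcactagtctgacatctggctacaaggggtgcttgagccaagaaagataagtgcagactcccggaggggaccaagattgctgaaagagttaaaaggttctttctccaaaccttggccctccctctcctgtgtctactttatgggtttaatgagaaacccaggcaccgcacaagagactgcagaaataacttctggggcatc
Fbln1: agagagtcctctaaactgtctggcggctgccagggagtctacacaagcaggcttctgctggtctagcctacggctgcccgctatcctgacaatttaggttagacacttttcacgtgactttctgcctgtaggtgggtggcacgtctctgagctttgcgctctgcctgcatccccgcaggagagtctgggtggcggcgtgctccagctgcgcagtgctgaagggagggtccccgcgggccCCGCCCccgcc
CCAAT stood 109 bases before the start of Col1a2, 145 before that of Col4a1 and 32 before that of Col4a2, and TATAAA stood 117 bases before that of Col3a1. No match overlapped another in these 6 windows, and in Fmod none of the 3 motifs was found in this window. Among 32851 mouse promoters of this length, CCAAT was found in 33.8%, TATAAA in 12.4% and GGGCGG in 32.7%. Of the 31 members with an entry, 13 held CCAAT, 1 held TATAAA and 20 held GGGCGG in any start listed. Col4a1 and Col4a2, which encode the α1 and α2 chains of the main type IV collagen, start 21 bases apart on opposite strands.

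Total counts per library were 15893595 to 20772473 in set A and 15967035 to 26085689 in set B. The cardiomyocyte label was checked with 8 markers such as Myh6 and Tnnt2, whose mean log2 CPM (a library's counts scaled to a common total) was 11.90 to 12.35 in 21 libraries of set A and 12.42 to 12.80 in set B. A fibroblast marker score, the mean log2 CPM of 12 markers that are not members (Pdgfra, Tcf21, Thy1 and others), was 1.31 to 2.70 in those 21 libraries, and none of the 12 markers was at 0 in any library. Library 489 (C57_wt_ACF) stood apart with a fibroblast score of 4.04, a macrophage score of 4.89, an erythrocyte score of 12.22 and a cardiomyocyte score of 9.33. Library 6756 (C3H_MNX_ACF) had a fibroblast score of 3.68 and a macrophage score of 4.08, and library 6763 (C57_MNX_sham) 3.42 and 3.55, against macrophage scores of at most 3.21 in the 21 others. In set B, replicate 23 (C3H_WT) had a fibroblast score of 3.83, against 1.92 to 3.21 in the other 23. In set A the exchanged libraries go against their genotype labels: a score of 36 strain-marking genes, set to 0 for C57_WT and 1 for C3H_WT of set B, was 0.67 to 0.92 in C3H_MNX and -0.27 to -0.20 in C57_MNX. They are therefore called here by title, and no mitochondrial background is drawn from set A. In set B the same score was 0.94 to 1.07 in C3Hn-C57mt and -0.17 to -0.02 in C57n-C3Hmt, on the side their labels give.

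Per kilobase of transcript, the small proteoglycan decorin (Dcn) had the highest mean level of the 49 in set A, at 102.7 ± 61.2 CPM per kb (SD, n = 24), and Lamb2, which encodes the laminin β2 chain, the highest in set B, at 75.59 CPM per kb. Col4a1 and Col4a2 had nearly the same mean level as each other, 32.9 and 31.27 CPM per kb in set A and 33.33 and 32.92 in set B. Biglycan (Bgn) stood at 32.27 CPM per kb in set A and 22.6 in set B, and perlecan (Hspg2), the metalloproteinase inhibitor Timp3 and, as the highest fibrillar chain, Col3a1 (19.44 in set A and 13.24 in set B) were lower. At the low end in set A were Col12a1 at 0.15, Col4a3 at 0.26, Col4a4 at 0.34 and the cross-linking enzyme lysyl oxidase (Lox) at 0.72 CPM per kb. The lowest 4 in set B were the same genes, with Col12a1 at 0.027, Col4a3 at 0.15, Lox at 0.18 and Col4a4 at 0.18 CPM per kb. In both sets Lamb2, Col4a1, Col4a2 and Hspg2 thus stood above every fibrillar collagen chain, while the basement membrane chains Col4a3 and Col4a4 were among the lowest members.

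Most matrix genes rose and fell with the fibroblast markers among libraries of the same group. In edgeR's quasi-likelihood fit of group means plus the fibroblast score, 46 of 49 members had a positive slope past an adjusted p of 0.05 in set A, where 62.8% of all genes passed in either direction 32.8% with a positive and 29.9% with a negative slope. In set B 42 of 49 did, where 13.7% of all genes passed 10.9% with a positive and 2.76% with a negative slope. A slope of 1 means that a gene doubles when the markers double. The median slope of the members was 1.04 in set A and 0.95 in set B, against 0.01 over all genes in set A. Without libraries 489 and 6756, 37 members passed in set A, where 21.5% of all genes did, and the members' median slope was 0.86. The fibroblast and endothelial scores moved together within groups (Pearson's r of 0.958 in set A and 0.76 in set B, over 24 libraries each, as a description). With the endothelial score as a second covariate 26 members passed in set B, where 2.49% of all genes did, and 0 in set A, where 0.0595% did, and in set A the 2 scores can hardly be told apart.

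**Figure D1:**
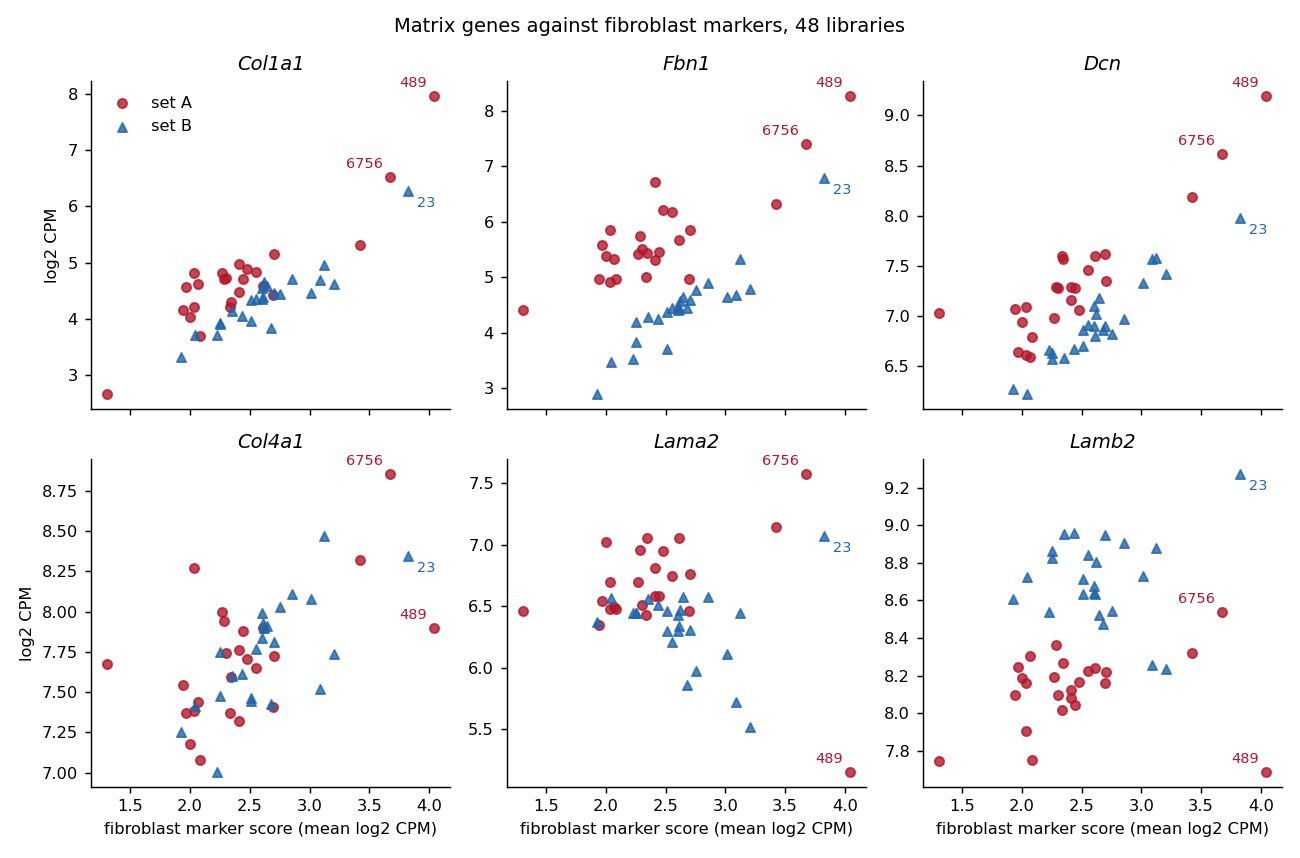
Level (log2 CPM) of 6 matrix genes against the fibroblast marker score (mean log2 CPM of 12 markers) in each of the 48 libraries, with 489, 6756 and 23 named. Col1a1, Fbn1 and Dcn climb with the score in both sets, Col4a1 climbs less, and Lama2 and Lamb2 are lowest of set A in 489 and highest of set B in 23.

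By the median over a role, fibrillar collagens had the steepest slopes, 1.40 in set A and 1.23 in set B, although Fn1 and Col12a1 in set A and Fbn1 in set B each exceeded every fibrillar chain. Type I collagen, the main load-bearing fibril of scar and heart wall, is built of Col1a1 and Col1a2 chains. Col1a1 stood at 7.96 log2 CPM in library 489 and 6.52 in 6756, against 2.67 to 5.31 in the other 22 libraries of set A, and at 6.28 in replicate 23, against 3.32 to 4.96 in the other 23 of set B. Its slope was 1.5 ± 0.127 (SE; adjusted p = 1.87e-08) in set A and 1.31 ± 0.107 (adjusted p = 2.03e-08) in set B. Col3a1, the chain of the finer type III fibrils, had slopes of 1.45 ± 0.171 and 1.46 ± 0.0868, and Col1a2 1.41 and 1.14. The minor fibrillar chain Col5a3 differed most between sets, with slopes of 0.67 in set A and 1.66 in set B, a difference that was not tested.

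Among elastic fibre and fibronectin genes the median slope was 1.24 in set A and 1.05 in set B. Fibronectin (Fn1), an adhesive glycoprotein laid down early in repair, stood at 10.67 log2 CPM in library 489 and 7.58 in 6756, against 4.61 to 6.6 in the other 22 libraries of set A. Its slope was 1.94 ± 0.208 in set A and 0.90 in set B. Fibrillin-1 (Fbn1), the backbone of microfibrils, had a slope of 1.26 in set A and 1.73 ± 0.129 in set B. Elastin (Eln) had slopes of 1.04 and 1.41. The small proteoglycans were close to 1: Dcn 0.99 and 0.89, lumican (Lum) 0.96 and 0.90, and the collagen-binding protein dermatopontin (Dpt) 1.04 and 0.99. The gelatinase Mmp2 had slopes of 0.97 and 0.96, and the large proteoglycan versican (Vcan) 1.46 and 1.22. The cross-linking enzymes Lox, Loxl1 and Loxl2 passed in both sets, with a median of 1.18 in set A and 1.011 in set B.

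Basement membrane genes had lower median slopes, 0.84 and 0.81 for the collagens and 0.67 and 0.54 for laminins, nidogens and perlecan in sets A and B, and some did not pass. Lama2, Lamb2 and Col4a5 did not pass in either set, with slopes of 0.04, 0.03 and -0.03 in set A and 0.02, 0.13 and 0.01 in set B. Lama2 encodes the α2 chain of the main laminin around muscle fibres. It stood at 5.15 log2 CPM in library 489, against 6.34 to 7.58 in the other 23 libraries of set A, and at 7.07 in replicate 23, against 5.51 to 6.58 in the other 23 of set B. Library 489 was thus the lowest of its set for Lama2 and replicate 23 the highest of its set, while library 6756 was the highest of set A. Lamb2, too, was lowest in 489 (7.69) and highest in replicate 23 (9.27) of their sets. The cardiomyocyte score was 9.33 in 489 and 12.42 in replicate 23, each at the low end of its set, and its part in the level of these genes was not tested. Col4a1 had slopes of 0.50 ± 0.11 in set A and 0.60 ± 0.15 in set B, Col4a2 0.29 and 0.42 (adjusted p = 0.0516 in set B) and Hspg2 0.79 and 0.46. When both scores entered the fit of set B, Col4a1 was the member whose slope on the endothelial score passed, at 0.74 ± 0.172 (adjusted p = 0.0124), beside a fibroblast slope of 0.04; 3.51% of all genes passed for the endothelial score. Of the remaining collagens, Col18a1 had slopes of 1.42 and 0.81, Col15a1 0.84 and 0.98 and Col12a1 1.71 and 0.91 (adjusted p = 0.0853 in set B). In set B the slopes of Timp3, at 0.12 (adjusted p = 0.809), and of Mfap4, at 0.60 (adjusted p = 0.0856), also did not pass.

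**Figure D2:**
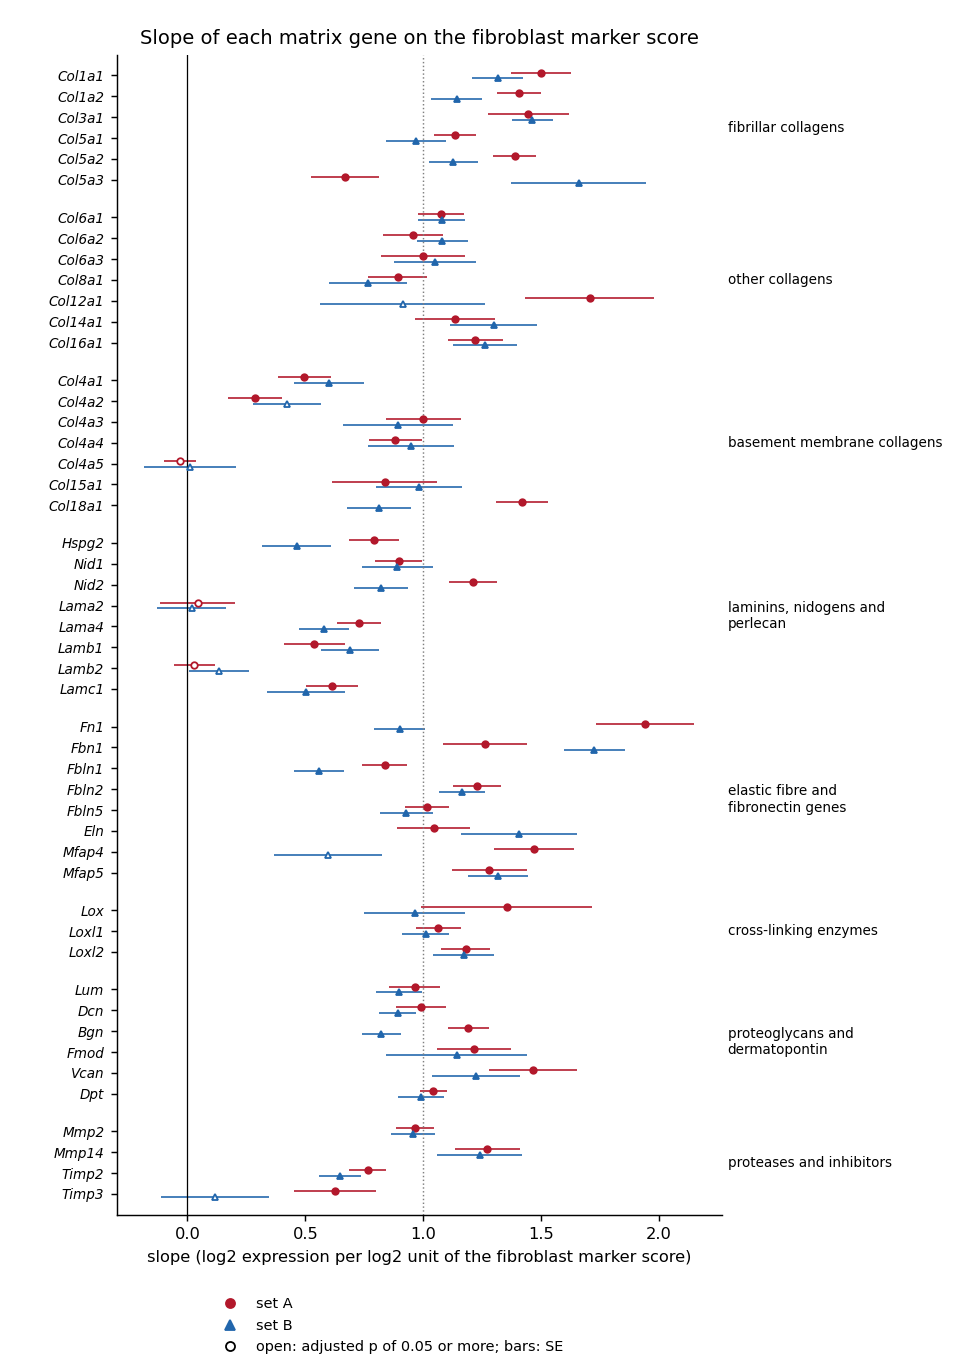
Slope of each of the 49 members on the fibroblast marker score in set A (circles) and set B (triangles), with SE bars, grouped by role; filled symbols passed an adjusted p of 0.05. Fibrillar collagens lie to the right of 1 in most cases, and Lama2, Lamb2 and Col4a5 lie at 0.

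Genes that build, anchor or regulate the matrix but are not members were tested against the same score, to be read against the 32.8% of all genes in set A and 10.9% in set B with a positive slope past the threshold. Of 18 collagen folding and processing genes tested, 13 had a positive slope past the threshold in set A and 6 in set B. Of 16 matrix receptors, 10 had a positive and 2 a negative slope in set A, and 5 a positive one in set B. Of 18 genes of the TGF-beta pathway 13 passed in set A and 4 in set B, and of 16 other turnover genes 11 in set A and 10 in set B, in each case with positive slopes.

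ACF at day 3 gave no matrix gene past the threshold with edgeR when all 24 libraries of set A were used without a covariate. Averaged over the 4 title strains, 45 of 49 members had a positive ACF minus sham difference with a median log2 fold change of 0.34, against 50.3% positive and a median of 0.00 over all genes. With edgeR 0 of 49 passed, where 0.275% of 13440 genes did, 0.201% higher and 0.0744% lower. There 11 members had an unadjusted p under 0.05, as did 1524 genes in all. DESeq2 called 1 member, Eln (2.04% of the members), where it called 1.82% of all genes. The medians by role were 0.62 for cross-linking enzymes, 0.62 for elastic fibre and fibronectin genes, 0.54 for fibrillar collagens, 0.20 for basement membrane collagens and 0.10 for laminins, nidogens and perlecan. The 6 smallest unadjusted p-values belonged to Lox (log2 fold change 1.66 ± 0.479, adjusted p = 0.160), Eln (1.03 ± 0.297, adjusted p = 0.160), Fn1 (1.41 ± 0.480, adjusted p = 0.245), Col12a1 (1.26), Fmod (0.80) and the membrane-bound collagenase Mmp14 (0.77). Col1a1 had a difference of 0.80, Col3a1 0.56, Vcan 0.90, Bgn 0.52, Dcn 0.18 and Mmp2 0.03.

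These differences depended on 2 of the 12 ACF libraries. Without 489 and 6756 the members' median log2 fold change was -0.06, and 18 of 49 were positive, with 0 of 49 past the threshold where 2.55% of all genes passed. Without 489 alone the median was 0.10 and 39 were positive. Col1a1 then had a difference of 0.05, Fn1 of 0.12 and Col5a2, a chain of type V collagen, of -0.05 without both libraries. Dpt had -0.44 (adjusted p = 0.0525), Eln 0.46 (adjusted p = 0.0702) and Lox 0.72 (adjusted p = 0.136). These fits kept sham library 6763, so high libraries were left out on the ACF side alone. Its mean log2 CPM over all members was 5.18, against at most 4.78 in the 21 libraries that did not stand apart.

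With the fibroblast score as a covariate and all 24 libraries, 5 members were higher after ACF and none lower, where 2.95% of all genes passed, 1.91% higher and 1.03% lower. They were Eln (0.85 ± 0.168, adjusted p = 0.0120), Fn1 (0.83 ± 0.204, adjusted p = 0.0345), the elastic fibre protein Fbln2 (0.44, adjusted p = 0.0345), the elastin cross-linking enzyme Loxl1 (0.40, adjusted p = 0.0440) and Col5a2 (0.35 ± 0.0948, adjusted p = 0.0478). Lox had 1.43 (adjusted p = 0.0565) and Col1a1 0.42 (adjusted p = 0.082). In this fit without 489 the members past the threshold were Eln (0.65, adjusted p = 0.00868), Fn1 (0.56, adjusted p = 0.0292) and Fbln2 (0.42, adjusted p = 0.0434), with Dpt lower (-0.20, adjusted p = 0.0292), where 2.81% of all genes passed. Without 489 and 6756 Eln passed (0.57, adjusted p = 0.0491), where 1.55% of all genes did. Markers of the mesothelium, the cell layer covering the heart, moved in the same fit: 4 of 5 were higher after ACF, namely Krt19 (1.09), Upk1b (0.90), Wt1 (0.90) and Msln (0.75), and the mean of the 5 was higher after ACF in each title strain, by 1.32 log2 units in C57_wt (0.34 without 489), 0.55 in C3H_wt, 0.56 in C57_MNX and 1.03 in C3H_MNX (0.36 without 6756). Their part in the matrix differences was not tested.

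**Figure D3:**
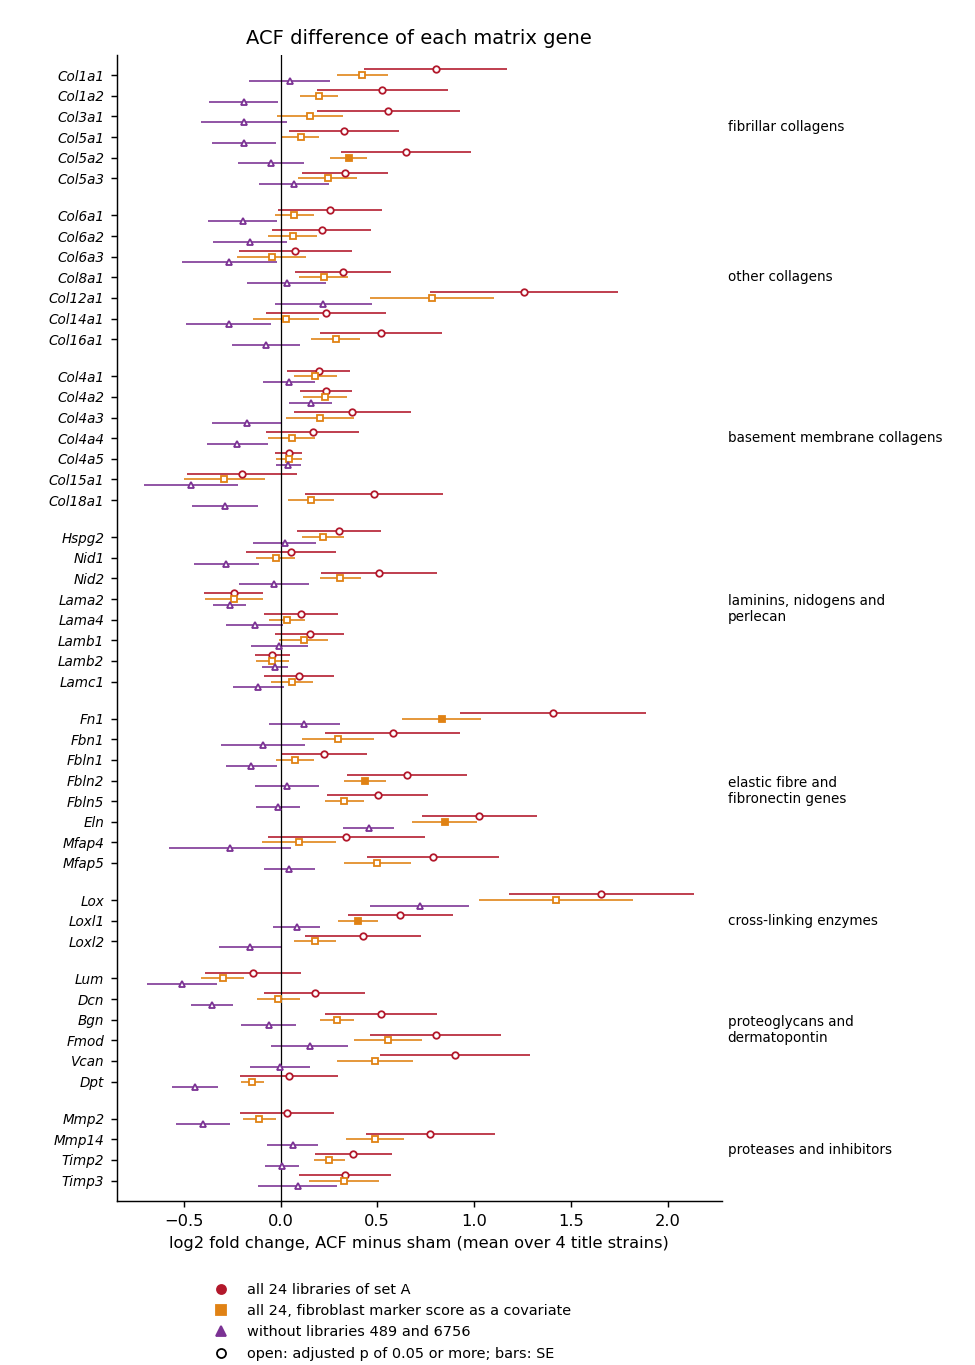
ACF minus sham log2 fold change of each member, averaged over the 4 title strains of set A, with SE bars: all 24 libraries (circles), all 24 with the fibroblast score as a covariate (squares) and without libraries 489 and 6756 (triangles); filled symbols passed an adjusted p of 0.05. The 6 fibrillar collagens lie between -0.19 and 0.07 without the 2 libraries, while Eln and Lox stay to the right of 0 in every fit.

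Library by library, Eln stood at 3.30, 3.31 and 3.61 log2 CPM in C3H_wt_ACF, against 2.58, 1.81 and 2.60 in C3H_wt_sham, and at 2.85, 2.81 and 3.95 in C3H_MNX_ACF, against 2.28, 2.51 and 2.42 in C3H_MNX_sham. In both C3H titles every ACF library was above every sham library. In C57_wt_ACF Eln was 3.02, 6.32 and 3.37, against 2.74, 2.90 and 3.31 in C57_wt_sham, and in C57_MNX_ACF 3.66, 3.67 and 2.92, against 3.17, 2.83 and 3.87 in C57_MNX_sham, where the groups overlapped. Lox, which oxidises lysines so that collagen and elastin can be joined, stood at 0.91, 1.31 and 2.93 in C3H_wt_ACF, against 0.49, -0.52 and 0.35 in C3H_wt_sham, and at 0.81, 0.72 and 1.19 in C3H_MNX_ACF, against 0.38, -0.06 and -0.21 in C3H_MNX_sham. It stood at 0.06, 5.37 (library 489) and 0.61 in C57_wt_ACF, against -0.23, 0.33 and 0.51 in C57_wt_sham, and at 1.26, 0.88 and 1.26 in C57_MNX_ACF, against 1.41, 0.04 and 1.49 in C57_MNX_sham. The groups of both C3H titles were thus apart for Lox too, and those of both C57 titles overlapped. Eln and Lox were among the members with the smallest p-values for mean ACF in these same libraries, so their separation is no independent support for an ACF difference. Nor does it show a difference between title strains: 0 of 49 members passed when the ACF differences of the wild types were compared, where 0% of all genes did. The share of all genes whose groups of 3 were apart in this way is not given here. Fn1 was 5.44, 10.67 and 5.23 in C57_wt_ACF, against 4.61, 4.97 and 6.03 in C57_wt_sham, and 4.96, 5.20 and 7.58 in C3H_MNX_ACF, against 5.26, 5.03 and 4.72 in C3H_MNX_sham; the high value in each ACF group is library 489 or 6756.

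Within single title strains no member passed with edgeR in the fit of all 24 libraries. In C57_wt the median ACF difference of the members was 0.97, with 44 of 49 positive and 0 past the threshold with edgeR, where 0% of all genes passed. There 17 members had an unadjusted p under 0.05, as did 2030 genes, and DESeq2 called 1, Eln (2.05, adjusted p = 0.0428), where it called 1.3% of all genes. Lox had 3.76 ± 0.99, Fn1 3.83 ± 1.05 and Col1a1 2.12 ± 0.76. Without 489 and 6756 the median of C57_wt was -0.15, with 13 positive. Without replicate 465 of C57_wt_ACF 12 members passed, and without replicate 490, 10, with library 489 then 1 of 2 in its group. The share of all genes that passed in these 2 fits is not given here, so the counts cannot be read as particular to matrix genes. In C3H_MNX the median was 0.75 with 49 of 49 positive and 0 past the threshold, where 0.00744% of all genes passed; 1 member and 230 genes had an unadjusted p under 0.05, and DESeq2 called 0 members. Without both libraries it was 0.01, with 26 positive. In C3H_wt the median was -0.16 (0.19 with the fibroblast score as a covariate and 0.61 with an L code in the titles, unexplained in the labels, as a factor) and in C57_MNX -0.05 (0.14 and -0.09), with 0 of 49 past the threshold in each by edgeR and by DESeq2, where 0% of all genes passed with edgeR; 0 members had an unadjusted p under 0.05 in either, against 951 and 274 genes. When 489 and 6756 left the fit, which changes the spread shared by all groups, Lox (1.91 ± 0.462) and Eln (1.05 ± 0.254) passed in C3H_wt, each with an adjusted p of 0.0443, where 1.42% of all genes passed. In the fit with the fibroblast score as a covariate, 0 members passed in any single title strain with edgeR; 12 had an unadjusted p under 0.05 in C57_wt, 14 in C3H_wt, 2 in C57_MNX and 0 in C3H_MNX, where 0%, 0.231%, 0% and 0.0149% of all genes passed, and DESeq2 was not run with this covariate.

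The mean fibroblast score, not tested between these groups of 3, was higher after ACF in C57_wt and C3H_MNX, the 2 title strains with a positive median over the members, and this rested on 1 library in each: without 489 and 6756 the difference was -0.32 in C57_wt and -0.14 in C3H_MNX. It was 2.69 in C57_wt_ACF, against 2.34 in C57_wt_sham, and 2.63 in C3H_MNX_ACF, against 2.24 in C3H_MNX_sham. It was 1.88 in C3H_wt_ACF, against 2.32 in C3H_wt_sham, and 2.60 in C57_MNX_ACF, against 2.77 in C57_MNX_sham. The last mean held library 6763 at 3.42, with the other C57_MNX_sham libraries at 2.34 and 2.55. The C57_MNX_ACF libraries stood at 2.41 to 2.70. The mean log2 CPM over all members was 4.85 in C57_wt_ACF, against 4.27 in C57_wt_sham, a difference of 0.58 that was -0.12 without 489. It was 4.62 in C3H_MNX_ACF, against 4.09 in C3H_MNX_sham, a difference of 0.53 that was 0.00 without 6756. In C3H_wt_ACF it was 4.03, against 4.20 in C3H_wt_sham, and in C57_MNX_ACF 4.66, against 4.67 in C57_MNX_sham. Here too library 6763 was high, at 5.18, with the other C57_MNX_sham libraries at 4.18 and 4.65. The C57_MNX_ACF libraries stood at 4.455 to 4.778.

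Whether the ACF difference varied between exchanged and wild-type libraries of a title strain, or between the wild types, was tested directly. The wild types differ in both nuclear and mitochondrial genomes. In each of these 3 tests 0 of 49 members passed, where 0% of all genes passed with edgeR, and DESeq2 called 0 members in each. The ACF difference of C57_MNX minus that of C57_wt had a median of -1.03 over the members, with 6 at an unadjusted p under 0.05 (774 genes), and of 0.07 without 489 and 6756. That of C3H_MNX minus that of C3H_wt had a median of 0.98, with 1 member at an unadjusted p under 0.05 (398 genes), and of 0.15 without the 2 libraries. That of C3H_wt minus that of C57_wt had a median of -1.12, with 6 members at an unadjusted p under 0.05 (1359 genes), and of 0.01 without them. With the fibroblast score as a covariate the 3 medians were 0.00, -0.11 and 0.00, and with the L code -0.27, 0.04 and 0.37. These tests share the wild-type groups. For Eln the last difference was -0.99 ± 0.83 (adjusted p = 0.562) and for Lox -1.84 ± 1.33 (adjusted p = 0.527). Both values include library 489 of C57_wt_ACF, the highest of set A for Eln (6.32 log2 CPM) and Lox (5.37). The separation seen in C3H_wt was thus not shown to differ from C57_wt, and C3H_MNX was not part of this test.

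Of the other genes of the pathway, 0 of the 18 folding and processing genes, 16 receptors, 18 TGF-beta genes and 16 turnover genes passed for ACF in the mean over title strains. When the fibroblast score was a covariate, the turnover genes Timp1 (1.46, adjusted p = 0.0184) and Plat (0.58) were higher after ACF, as were the receptors Sdc4 (0.60) and Itga5 (0.34) and the TGF-beta inhibitor Smad7 (0.47), and the collagen lysyl hydroxylase Plod2 was lower (-0.28). Timp1 encodes an inhibitor of matrix metalloproteinases and Plat tissue plasminogen activator.

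Nuclear strain was tested in set B, as the mean over both mitochondrial backgrounds of C3H minus C57 nucleus, with 12 libraries on each side. Of the 49 members, 3 were higher and 6 lower with a C3H nucleus; over all genes 35.7% passed, 18.9% higher and 16.8% lower. The members' median was 0.03. The lower ones were Fmod, Fbln1, Lox, Eln, Loxl1 and Fbln5, which belong to elastic fibres, to their cross-linking and to fibril assembly. The higher ones were Lum, Col6a3 and Lama2. None of the 6 fibrillar collagen chains and none of the 7 basement membrane collagens passed, with differences for the fibrillar chains between -0.16 and 0.36.

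Fibromodulin (Fmod), a small proteoglycan that binds fibrillar collagen, differed most. Its log2 CPM had a lowest, median and highest value of 0.83, 1.62 and 3.16 in the 12 C3H-nucleus libraries of set B, against 2.53, 3.20 and 5.21 in the 12 C57-nucleus libraries. The groups overlapped, and 11 of 12 C3H libraries lay below all C57 libraries. The log2 fold change was -1.82 ± 0.260 (adjusted p = 3.09e-06). In set A, by title strain, the corresponding values were 0.60, 1.34 and 3.14 for C3H titles, against 2.42, 3.72 and 5.70 for C57 titles, and again 11 of 12 C3H libraries lay below all C57 libraries. The difference there was -2.21 ± 0.345 (adjusted p = 7.78e-05) over all 24 libraries.

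Fibulin-1 (Fbln1), a glycoprotein of basement membranes and elastic fibres, stood at 4.25, 4.77 and 5.59 (lowest, median and highest) with a C3H nucleus, against 5.39, 5.89 and 6.51 with a C57 nucleus. Of the 12 C3H libraries of set B 11 lay below all C57 libraries, and the log2 fold change was -1.09 ± 0.109 (adjusted p = 6.77e-09). In set A the values were 3.65, 4.47 and 5.87 for C3H titles, against 4.81, 5.44 and 6.82 for C57 titles, with 10 of 12 C3H libraries below all C57 libraries and a difference of -0.99 ± 0.223 (adjusted p = 0.00298). Fbln1 and Fmod were lower with the C3H nucleus in set B and in the C3H titles of set A. Both kept their calls in 24 of 24 fits of set B that left out 1 library.

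Lum, a keratan sulphate proteoglycan of collagen fibrils, stood at 3.75, 4.32 and 5.62 with a C3H nucleus, against 3.03, 3.79 and 4.31 with a C57 nucleus, in set B. There 6 of 12 C3H libraries lay above all C57 libraries, and the difference was 0.61 ± 0.144 (adjusted p = 0.00153). Col6a3, a chain of the microfibrillar type VI collagen, was 3.02, 3.90 and 5.24, against 2.35, 3.19 and 4.29 with a C57 nucleus, a difference of 0.70 ± 0.185 (adjusted p = 0.00412). Lama2 was 6.29, 6.49 and 7.07 with a C3H nucleus, against 5.51, 6.26 and 6.46 with a C57 nucleus, with 7 of 12 C3H libraries above all C57 libraries and a difference of 0.34 ± 0.105 (adjusted p = 0.0123). By title in set A these 3 did not pass, with Lum at 0.24 (adjusted p = 0.514), Col6a3 at 0.06 (adjusted p = 0.901) and Lama2 at 0.22 (adjusted p = 0.319); with the fibroblast score as a covariate Lum passed there (0.53, adjusted p = 0.0014).

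**Figure D4:**
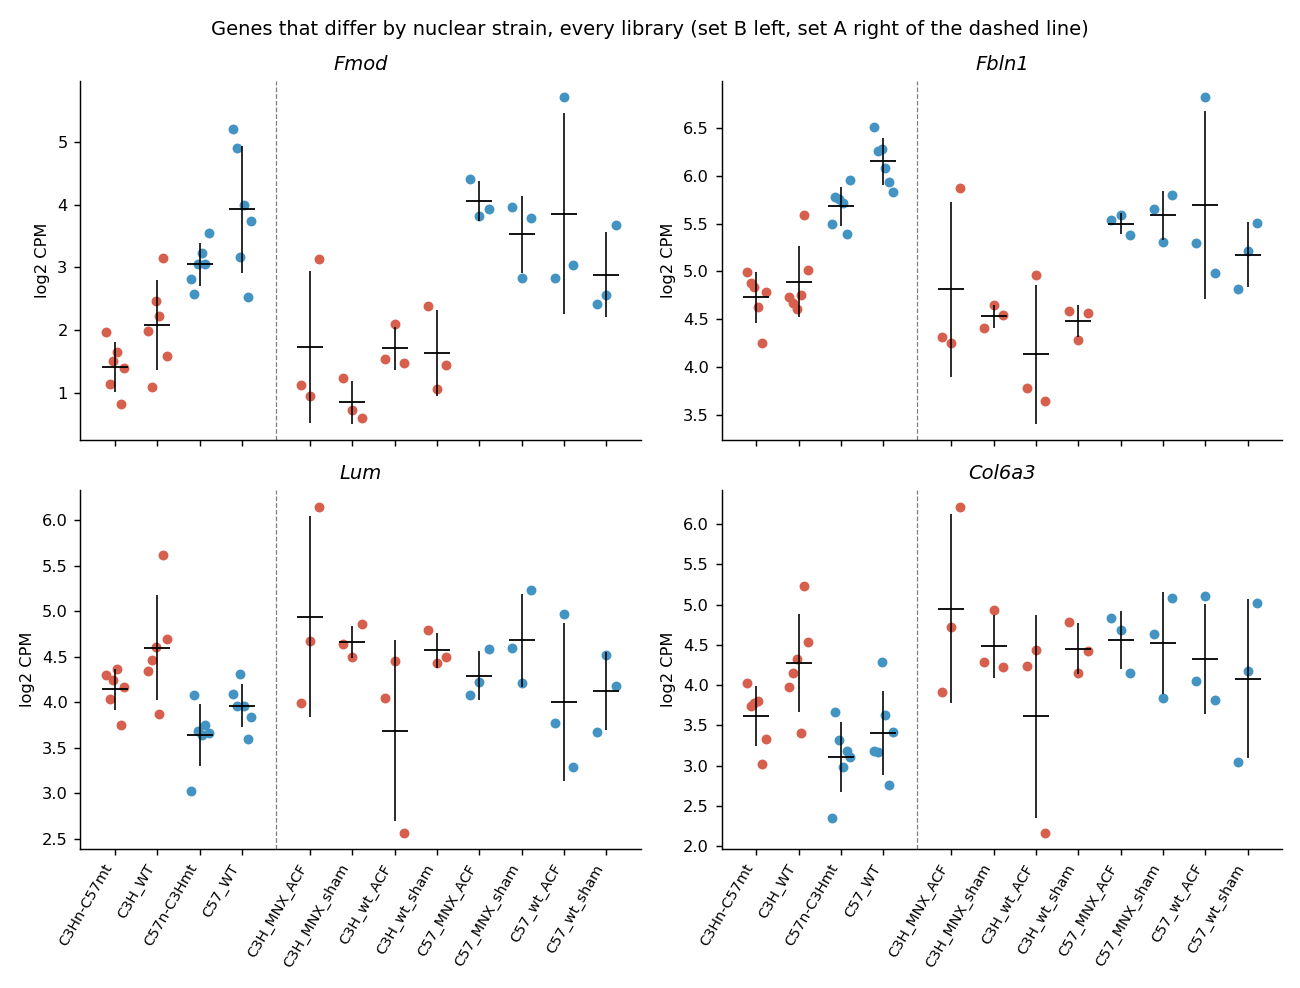
Level (log2 CPM) of Fmod, Fbln1, Lum and Col6a3 in every library by group, set B left and set A right of the dashed line; red marks C3H and blue C57 titles, and bars give the mean and SD (n = 6 in set B, n = 3 in set A). Fmod and Fbln1 lie lower in C3H than in C57 titles in both sets, while Lum and Col6a3 overlap more.

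Lox had a log2 fold change of -0.70 ± 0.204 (adjusted p = 0.00838), Loxl1 of -0.62 ± 0.160 (adjusted p = 0.00338), Eln of -0.65 ± 0.238 (adjusted p = 0.034) and the elastin-binding fibulin Fbln5 of -0.40 ± 0.149 (adjusted p = 0.0368). The calls of Lox and Loxl1 were kept in 24 of 24 fits that left out 1 library, that of Eln in 15 and that of Fbln5 in 11. Loxl1 was 2.20, 2.99 and 4.32 with a C3H nucleus, against 3.02, 3.59 and 4.61 with a C57 nucleus, and replicate 23 was the highest C3H library. By title in set A 8 members passed, all lower in C3H, where 21.4% of all genes passed: Fmod, Col12a1 (-1.71), Fbln1, Col16a1 (-0.95), Fbln2 (-0.94), Eln (-0.85), Loxl1 (-0.82) and Fbln5 (-0.77). The median over the members was -0.41, with 8 of 49 positive. With the fibroblast score as a covariate it was 0.01, with 26 positive, and 10 passed, where 27.3% of all genes did: Lum, Mmp2 (0.58), Dpt (0.34) and Col4a1 (0.32) higher, and Fmod, Fbln1, Fbln2, Fbln5, Loxl1 and Col16a1 lower.

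**Figure D5:**
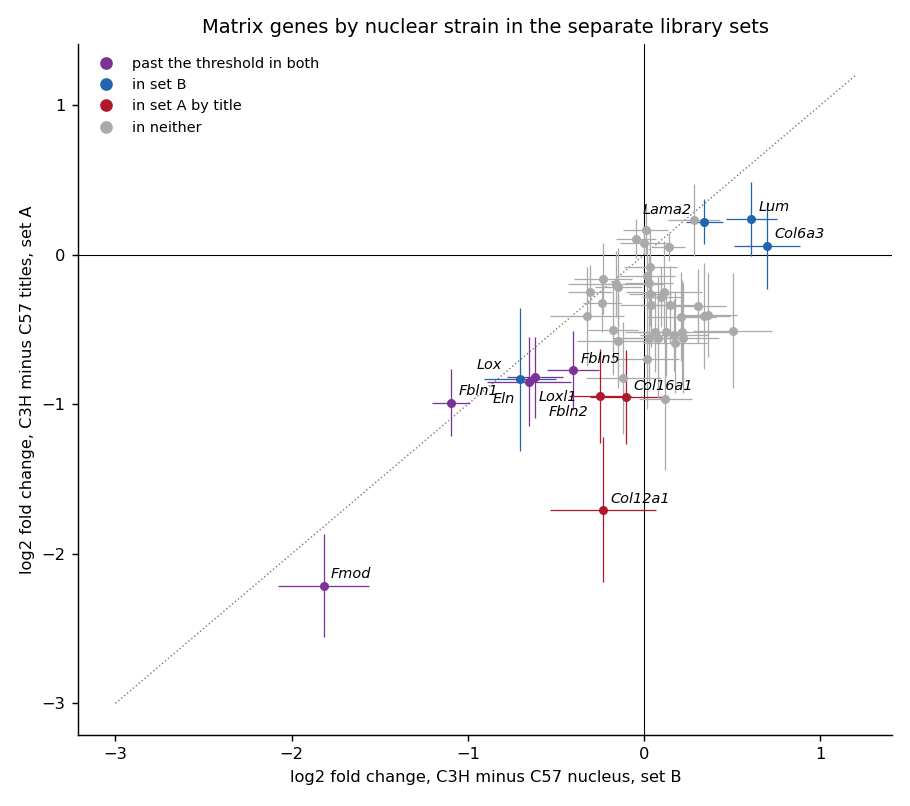
C3H minus C57 log2 fold change of each member in set B (horizontal axis) and by title strain in set A (vertical axis), with SE bars; the dotted line marks equal values. Fmod, Fbln1, Eln, Loxl1 and Fbln5 passed in both sets in these fits without a covariate, and most grey points lie below 0 on the vertical axis. With the fibroblast score as a covariate Eln did not pass in set A, and with the L code as a factor Eln and Fbln5 changed sign in set B.

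Once the fibroblast score entered as a covariate, 21 members passed for nuclear strain in set B, 14 higher and 7 lower with a C3H nucleus, where 36.1% of all genes passed. Fmod (-1.69), Fbln1 (-1.05), Lum (0.68) and Col6a3 (0.79) stayed past the threshold. Members that were added on the higher side included Vcan (0.56), Col5a1 (0.43), Col18a1 (0.43), Mmp2 (0.37), Fbn1 (0.30), Col1a1 (0.29) and Bgn (0.20), while Lamb1 was lower (-0.24). Without replicate 23, 16 members (32.7%) passed with the fibroblast score as a covariate, where 36.6% of all genes did. With no covariate 14 passed without that library, and the share of all genes in that fit is not given here. Mesothelial markers also differed by nuclear strain, 4 of 5 of them lower with a C3H nucleus, by 1.13 to 1.71 on the log2 scale, and the mean mesothelial score was 1.59 ± 0.306 in C3Hn-C57mt and 3.41 ± 1.14 in C57_WT (SD, n = 6 each; exact permutation test, two-sided p = 0.00433, adjusted p = 0.0433 over 20 tests of marker scores). With C3H mitochondria it was 2.21 ± 0.703 in C3H_WT and 2.49 ± 0.159 in C57n-C3Hmt (exact permutation p = 0.37, adjusted p = 0.517). With the mesothelial score as a covariate Fmod differed by -0.80 (adjusted p = 7.42e-05) and Fbln1 by -0.86, and with both scores by -0.82 and -0.99. The L code of the titles was L3 for every C3H_WT library and L8 for every C57_WT library. With it as a factor 2 members passed, Fbln1 (-1.03, adjusted p = 0.00546) and Col18a1 (1.08, adjusted p = 0.0212), where 10.4% of all genes passed; Fmod then had -1.44 (adjusted p = 0.142), and the L code and genotype can hardly be told apart.

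On the 2 mitochondrial backgrounds most calls for nuclear strain ran in opposite directions, while Fbln1 was lower with the C3H nucleus on both. With C57 mitochondria, C3Hn-C57mt minus C57_WT, 18 members passed and all were lower with the C3H nucleus, where 31.9% of all genes passed, 15.9% higher and 16% lower; the members' median was -0.44. The 12 with the greatest difference were Fmod (-2.78 ± 0.375), Fbln1 (-1.43), Eln (-1.40), Col12a1 (-1.31), Lox (-1.17), Loxl1 (-1.16), Fbln5 (-1.01), Col3a1 (-0.96), Col14a1 (-0.93), Mmp14 (-0.93), Fbln2 (-0.86) and Col16a1 (-0.85), and the other 6 lay between -0.65 and -0.52. With C3H mitochondria, C3H_WT minus C57n-C3Hmt, 13 members were higher and 1, Fbln1 (-0.76), lower with the C3H nucleus, where 19.4% of all genes passed, 10.6% higher and 8.78% lower; the median was 0.53. The higher ones by size were Col6a3 (1.23 ± 0.264), Vcan (1.18), Lum (1.04), Col5a1 (0.86), Col1a1 (0.85), Mmp2 (0.83), Col1a2 (0.78), Col4a4 (0.76), Col6a2 (0.71), Col18a1 (0.66), Dpt (0.65), Bgn (0.59) and Timp2 (0.46). Without replicate 23 of C3H_WT the count was 7, and without replicates 10, 7 or 9 of C57n-C3Hmt it was 6, 9 and 9. Without replicate 22 of C3H_WT it was 22. The share of all genes that passed in these fits is not given here, so the counts show only that the calls depended on single libraries.

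The mean fibroblast score had the same signs, although neither difference passed after adjustment. It was 2.35 ± 0.230 in C3Hn-C57mt and 2.88 ± 0.375 in C57_WT (SD, n = 6 each), a difference of -0.53 (exact permutation test, two-sided p = 0.026, adjusted p = 0.115). It was 2.81 ± 0.517 in C3H_WT and 2.52 ± 0.306 in C57n-C3Hmt, a difference of 0.29 (exact permutation p = 0.353, adjusted p = 0.517). The macrophage score was 2.36 ± 0.401 in C3Hn-C57mt and 3.38 ± 0.403 in C57_WT, a difference of -1.03 that passed (exact permutation p = 0.00216, adjusted p = 0.0433), and 0.24 higher in C3H_WT than in C57n-C3Hmt (exact permutation p = 0.528, adjusted p = 0.621). The endothelial score differed by -0.49 (exact permutation p = 0.0433, adjusted p = 0.124) and by 0.19 (adjusted p = 0.517) in the same 2 exact permutation tests. The part of macrophages and endothelial cells in the matrix differences was not tested. With the fibroblast score as a covariate 7 members passed with C57 mitochondria, where 20% of all genes did, and the median was 0.05. They were Fmod (-2.09), Fbln1 (-1.12), Loxl1 (-0.61) and Fbln5 (-0.51), lower, and Col6a3 (0.72), Lum (0.66) and Col18a1 (0.46), higher. With C3H mitochondria 10 passed, where 20.1% of all genes did: Fmod (-1.28), Fbln1 (-0.97) and Loxl1 (-0.46), lower, and Col6a3 (0.87), Lum (0.70), Vcan (0.62), Mmp2 (0.49), Col5a1 (0.48), Dpt (0.30) and Bgn (0.30), higher. With the score in the fit Fmod, Fbln1 and Loxl1 were lower, and Col6a3 and Lum higher, with the C3H nucleus on either mitochondrial background.

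Mitochondrial exchange on a fixed nucleus gave no member past the threshold in set B. These 2 comparisons use the same groups as the nuclear ones above. On the C57 nucleus (C57n-C3Hmt minus C57_WT) 46 of 49 members were negative, with a median of -0.42; 0 passed with edgeR and 0 with DESeq2, where 0% of all genes passed with edgeR, and 17 members had an unadjusted p under 0.05 (1509 genes). The smallest p-values belonged to Fmod (-1.14 ± 0.346, adjusted p = 0.270), Fbln1 (-0.48), Fbln5 (-0.66), Col12a1 (-1.26), Dcn (-0.52) and Nid2 (-0.52). Fmod had a lowest, median and highest log2 CPM of 2.58, 3.06 and 3.55 in C57n-C3Hmt, against 2.53, 3.87 and 5.21 in C57_WT, so the groups overlapped. On the C3H nucleus (C3Hn-C57mt minus C3H_WT) 48 of 49 were negative, with a median of -0.60; 0 passed with edgeR and 0 with DESeq2, where 0.00747% of all genes passed with edgeR, and 36 members had an unadjusted p under 0.05 (1257 genes). There Vcan had -1.04 (adjusted p = 0.472), Mmp2 -0.68, Dpt -0.71, Mfap5 -0.99, Col5a2 -0.79 and Col3a1 -0.93.

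Both exchanged groups had lower mean fibroblast scores than the wild type of the same nucleus, by 0.36 on the C57 nucleus (exact permutation p = 0.0996, adjusted p = 0.181) and by 0.46 on the C3H nucleus (exact permutation p = 0.0346, adjusted p = 0.115), neither past the threshold after adjustment. Other marker scores were lower too, also not past the threshold: the differences were -0.59 for macrophages on the C57 and -0.68 on the C3H nucleus (adjusted p = 0.101 and 0.115), -0.92 and -0.61 for mesothelium (0.173 and 0.152) and -0.34 on each for endothelium (0.314 and 0.173), in the same exact permutation tests. Their part in the matrix differences was not tested. In the fit with the fibroblast score as a covariate, the members' median difference was -0.03 on the C57 nucleus, with 21 positive, and -0.06 on the C3H nucleus, with 9 positive. Fibrillar collagens had differences between -0.75 and -0.37 on the C57 nucleus and between -0.93 and -0.64 on the C3H nucleus before that adjustment. Lama2, which did not move with the fibroblast score, had 0.06 and -0.11.

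The difference between the nuclear effects on the 2 mitochondrial backgrounds was tested as an interaction. Of the 49 members 0 passed with edgeR, where 0% of all genes passed; 41 members and 2188 genes had an unadjusted p under 0.05, and DESeq2 called 15 members, where it called 2.47% of all genes. The median was -1.02 and 48 were negative. The smallest p-values were those of Fbln5 (-1.22 ± 0.299, adjusted p = 0.0841), Dpt (-1.23 ± 0.305, adjusted p = 0.0841), Col3a1 (-1.68 ± 0.428, adjusted p = 0.0846), Col5a2 (-1.34, adjusted p = 0.089), Fmod (-1.93, adjusted p = 0.089) and Dcn (-0.998, adjusted p = 0.089). Without replicate 5 of C57_WT 19 members passed with edgeR, in a fit whose share of all genes past the threshold is not given here. With the fibroblast score as a covariate the median was -0.12, with 13 positive. Whether the nuclear effects differed between the 2 mitochondrial backgrounds was thus called differently by edgeR and DESeq2 in the fit of all 24 libraries. This test asks whether the 2 effects differ, and it does not show that a gene's effects have opposite signs.

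Title strains were also compared within the sham libraries of set A. The wild types, C3H_wt_sham minus C57_wt_sham, had 0 of 49 members past the threshold with edgeR and 0 with DESeq2, where 3.76% of all genes passed with edgeR, 2.17% higher and 1.59% lower; 0 members and 1511 genes had an unadjusted p under 0.05, and the median was -0.09. When the fibroblast score was a covariate, Fmod (-1.27), Fbln1 (-0.69) and Mmp2 (0.56) passed, where 7.34% of all genes did. Fmod was 2.39, 1.07 and 1.44 log2 CPM in C3H_wt_sham, against 2.42, 2.57 and 3.67 in C57_wt_sham. The groups did not overlap, but the highest C3H value (2.39) lay close to the lowest C57 value (2.42). C3H_MNX_sham minus C57_MNX_sham had 1 member past the threshold, Fmod (-2.78 ± 0.717, adjusted p = 0.0278), where 4.43% of all genes passed, 2.36% higher and 2.08% lower. Fmod was 1.25, 0.73 and 0.60 in C3H_MNX_sham, against 3.96, 2.83 and 3.78 in C57_MNX_sham; the call was lost without 6649, 6652, 6661, 6659 or 6763, which leaves 2 libraries in a group. Exchanged minus wild-type sham libraries gave 0 members past the threshold by edgeR and by DESeq2 in the C57 titles, where 0% of all genes passed, and in the C3H titles, where 0.0149% did. The medians were 0.40, with library 6763 among the exchanged, and -0.09, with 0 members at an unadjusted p under 0.05 in either (296 and 197 genes).

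Other matrix genes differed by nuclear strain in set B in both directions, at shares to be read against the 18.9% of all genes that were higher and 16.8% that were lower. Of 18 folding and processing genes 4 were higher and 3 lower with a C3H nucleus, among them the prolyl hydroxylase Leprel1 (1.27), the prolyl hydroxylation cofactor Crtap (0.51), the procollagen protease enhancer Pcolce2 (-1.01) and the protease Tll1 (-0.98). Of 16 turnover genes 2 were higher and 5 lower, among them Mmp28 (-2.01), the inhibitor Timp4 (-1.74), Mmp13 (-1.56), Mmp9 (-1.25) and Adam12 (0.73). Of 16 receptors the collagen receptor Ddr1 was higher (1.19) and the integrin chains Itga10 (-1.24) and Itgb5 (-0.20) lower. Of 18 TGF-beta genes 2 were higher, Smad3 (0.29) and Smad4 (0.19), and 3 lower, Tgfbr2 (-0.42), Ltbp1 (-0.38) and Tgfbr3 (-0.38). No gene of these 4 lists passed for mitochondrial exchange on either nucleus or for the interaction with edgeR.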

How the data were processed

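The members, gene lists and rule for named genes were chosen with earlier results of these data known. Cells came from collagenase-perfused hearts, and stranded mRNA libraries were sequenced on an Illumina HiSeq, per the labels' protocols. Bowtie, RSEM 1.2.0, CASAVA 1.8.2 and mouse build mm9 are listed, per the submitters' processing notes, and a provider's own mapping, per the labels' protocols; which made the table is not given in the sources used here. The authors deposited expected counts per gene symbol, not normalized, and 13.9% of the values were not whole, so they were rounded to whole numbers.

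Tests used edgeR 4.0.16's quasi-likelihood F test in R 4.3.3 (TMM scaling, filterByExpr with the groups, p-values adjusted by Benjamini-Hochberg over all genes tested, threshold 0.05), in 1 model of group means per set: 13440 genes in set A, 13395 in set B. A standard error is the log2 fold change divided by the square root of F. Levels were computed as log2 CPM (prior count 2); lengths are of the longest coding GENCODE transcript. Marker lists had 3 symbols not found. The scripts were tested on simulated data. Alternatives were DESeq2 1.42.0, its size factors, no filter, own groups alone, marker scores or the L code as covariates, and leaving out libraries. Chosen after seeing the data were the fits by title strain in set A, with mesothelial or endothelial scores, and with the fibroblast score while leaving out 489, 489 and 6756, or 23. The rule named 18 members throughout, up to 12 past the threshold in a comparison, and the 6 smallest p-values where fewer than 5 passed.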

Additional observations from a re-analysis of the deposited data

Results flagged for a closer look

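In groups of 6 libraries, 1 library stood far from the other 5 in 11 of 96 sets of values examined. Chance flags about 1 in 20. The sets came from the same libraries and most members moved with the fibroblast score, so the flags were not independent. Of the 11, 6 were replicate 23. Replicate 23 of C3H_WT was the highest of its group for Col1a1 (6.28 log2 CPM), Col3a1 (7.83), Fbn1 (6.79), Lama2 (7.07), Loxl1 (4.32) and the fibroblast marker score (3.83). Replicate 10 of C57n-C3Hmt was the lowest of its group for Fn1 (3.74 log2 CPM), Dcn (6.27), Bgn (5.07) and the fibroblast marker score (1.92). Replicate 18 of C3Hn-C57mt was the lowest of its group for Hspg2 (7.52 log2 CPM).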

How the results depend on the processing

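Counts are of members past the threshold. For fits that left out 1 library or used the groups of a comparison alone, the share of all genes is not given here. For the mean ACF difference (0), DESeq2 gave 1, the fibroblast score as a covariate 5, that without library 489 4 and without 489 and 6756 1; for ACF in C57_wt (0) DESeq2 gave 1, and for ACF in C3H_wt (0) leaving out both libraries gave 2. For nuclear strain in set B (9), the fibroblast score gave 21, that without replicate 23 16, the mesothelial score 15 and the L code 2. With C57 mitochondria (18) the fibroblast score gave 7 and the L code 2; with C3H mitochondria (14) the L code gave 5 and the fit of those groups alone 9; for the interaction (0) DESeq2 gave 15. In sham libraries of set A, wild types (0) gave 3 with the fibroblast score and 1 without both libraries, and exchanged (1) gave 4 with the score, 0 with the L code, 6 alone and 7 without both. For slopes, the endothelial score gave 0 in set A (46) and 26 in set B (42). Leaving out 1 library gave 0 to 2 for mean ACF, 0 to 12 for ACF in C57_wt, 7 to 14, 14 to 21 and 6 to 22 for the nuclear comparisons, 0 to 19 for the interaction, 0 to 3 for exchanged sham, 44 to 46 and 35 to 44 for slopes, and 0 for the other comparisons. The sign reversed for Col5a2 in mean ACF without 489 and 6756 (-0.048), and for nuclear strain with the L code for Fbln5 (0.29), Eln (0.46) and Lox (0.055), and for Lox by title in set A with the fibroblast score (0.038). The cause was not tested. No paired analysis was possible because no replicate number was shared between groups. With 3 libraries a group in set A, differences the size of the spread that 489 brings could not be detected; members with few counts, such as Col12a1 and Lox, were measured least precisely.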
